A study of Oncorhynchus mykiss with 16 samples.

Results

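The glucose entry genes followed here are glucose transporter 1, glucose transporter (Glut2) and hexokinase, 3 transcripts of glucose uptake and first phosphorylation with a readable name on a rainbow trout array. They were chosen by these names, with earlier results of these data known. Each name belonged to 1 probe with 1 spot (CUST_157_PI425708691 for glucose transporter 1, CUST_156_PI425708691 for Glut2 and CUST_160_PI425708691 for hexokinase). They are 3 of the 60195 probes on the array, and all 3 were among the 42541 probes bright enough to be tested. The probes were measured in primary cells of rainbow trout (Oncorhynchus mykiss) during differentiation into adipocytes. There were 4 independent cultures, labelled 4, 8, 9 and 10, each grown from the pooled visceral white fat of several fish, and each culture gave 1 array at each of days 3, 8, 15 and 21 after seeding. The study's methods call the cells mesenchymal stem cells at day 3, proliferated cells at day 8, committed preadipocytes at day 15 and mature adipocytes at day 21. All cultures were kept in L-15 medium with fetal bovine serum, and after confluence at day 8 the medium also held insulin, 3-isobutyl-1-methylxanthine (IBMX), dexamethasone and a lipid mixture. Days 3 and 8 therefore precede the differentiation medium and days 15 and 21 follow it, so time in culture and the change of medium cannot be told apart. No flask without the differentiation medium at days 15 and 21 is among the samples used here, and a culture of pooled fish does not give the spread between single animals.

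Glucose enters most cells down its gradient through facilitative transporters of the GLUT family. In mammals GLUT1 is the widespread carrier of basal uptake, whereas GLUT2 is the low-affinity carrier known from liver, pancreatic islets and gut. Once inside, glucose is phosphorylated by hexokinase to glucose-6-phosphate, which cannot leave through the transporters and feeds glycolysis, glycogen and the pentose phosphate pathway. In fat cells glucose also supplies the glycerol backbone of stored triglycerides.

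The values below are log2 of the background-corrected spot signal relative to the 75th percentile of the same array, so that 0 is a probe at that percentile and each unit is a 2-fold step in signal. They compare 1 probe between arrays, not the level of 1 transcript with that of another. Spots well above background made up 65.5% to 80.5% of an array, and 0 spots were saturated. The 3 probes met this mark on each of the 16 arrays, with processed signals of 1041 to 6907 for glucose transporter 1, 37.4 to 919 for Glut2 and 57.5 to 430 for hexokinase, where the lowest signal counted as well above background was 10.9 to 24.8 depending on the array. The arrays report bulk RNA, so a smaller share of cells that express a gene and less of its RNA per cell cannot be told apart. The number of cultures limits the precision. Without pairing, the p-values measure the spread within days between cultures of pooled fish. Where a fit pairs the arrays by culture, they measure the spread left after the levels of the cultures are removed. Each culture gave 1 array per day, so either spread also holds differences between flasks and between arrays.

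**Figure D1:**
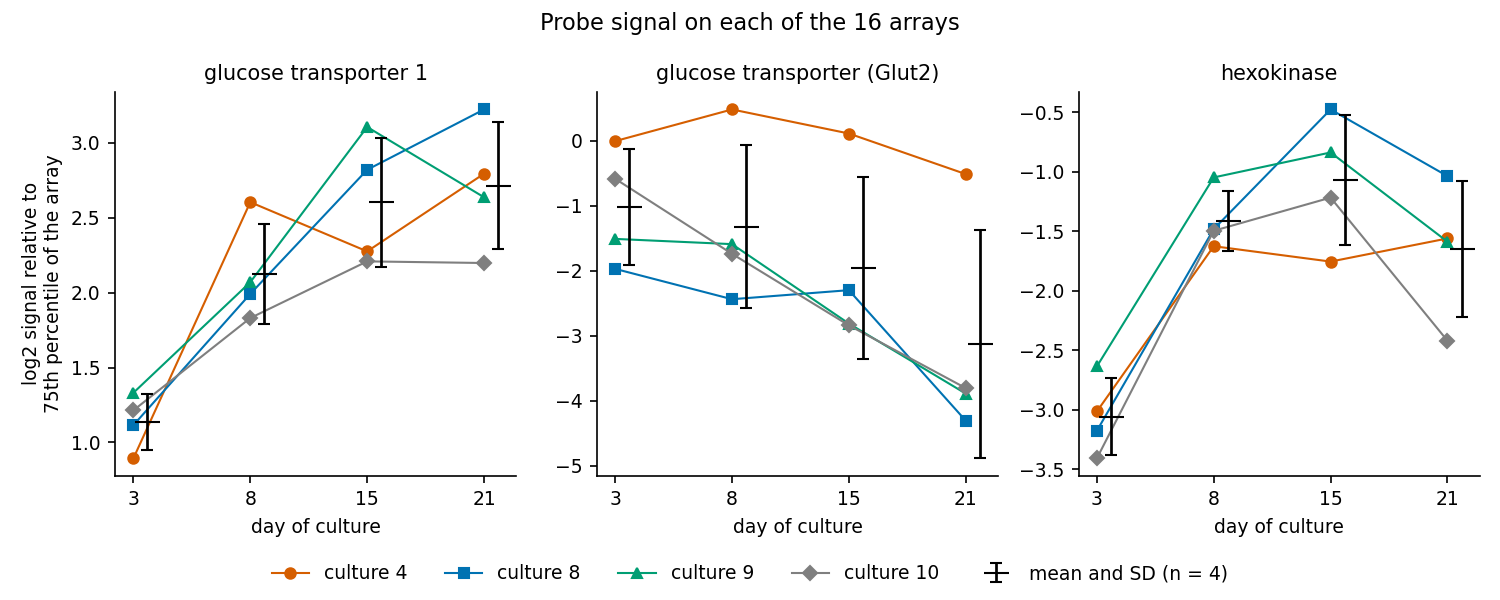
Log2 signal of the 3 probes relative to the 75th percentile of the array (vertical axes, which differ between panels) at days 3, 8, 15 and 21 (horizontal axes), 1 line per culture, with the mean and SD of the 4 cultures beside each day. Glucose transporter 1 and hexokinase lay higher on every array of day 8 than on any array of day 3, and the Glut2 line of culture 4 stays above the other 3 cultures on each day.

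Glucose transporter 1 was higher in every culture at each later day than at day 3. At day 3 the probe stood at 0.89, 1.12, 1.33 and 1.21 in cultures 4, 8, 9 and 10. At day 8 it stood at 2.60, 1.99, 2.07 and 1.83 in the same cultures. Culture 4 was thus the lowest of the 4 at day 3 and the highest at day 8, and the ranges of the 2 days did not overlap. For none of the separations of days described in this report was the share of all tested probes counted. At day 15 the values were 2.28, 2.82, 3.11 and 2.21, and at day 21 they were 2.79, 3.22, 2.64 and 2.20. Cultures 4 and 8 were highest at day 21 and cultures 9 and 10 at day 15, so the cultures did not share a peak day. The means of days 3, 8, 15 and 21 were 1.14 ± 0.19, 2.12 ± 0.34, 2.60 ± 0.43 and 2.71 ± 0.42 (SD, n = 4 each).

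The rise of glucose transporter 1 passed the test between days 8 and 3, between days 21 and 3 and between the 2 phases, but not between any later neighbours. At day 21 the probe was 2.98-fold higher than at day 3, a log2 difference of 1.57 (SE 0.25, 95% confidence interval 1.04 to 2.11, limma with Benjamini-Hochberg adjustment over all tested probes, adjusted p = 0.000285), and it was higher in 4 of 4 cultures. The size of this difference was 1.90, 2.11, 1.31 and 0.98 in cultures 4, 8, 9 and 10, so culture 10 rose least. Day 8 against day 3 gave 1.98-fold (log2 difference 0.99, interval 0.45 to 1.52, limma adjusted p = 0.0148), with 1.71 in culture 4 and 0.62 to 0.88 in the other 3. This step is close to the threshold of 0.02, and it lost the call when any 1 culture was left out, with log2 differences and limma adjusted p of 0.74 and 0.101 without culture 4, 1.02 and 0.0714 without culture 8 and 1.07 and 0.0624 without culture 9, and 1.11 without culture 10 with an adjusted p of 0.02003, just short of a call. The phase of days 15 and 21 was higher than the phase of days 3 and 8 by 1.03 (SE 0.18, limma adjusted p = 0.000514), again in 4 of 4 cultures. The earlier phase includes day 3, and neither day 15 nor day 21 was called against day 8 alone.

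After day 8 the order of the glucose transporter 1 means followed the days, but neighbouring days were not separated. Day 15 exceeded day 8 by 0.48 (interval -0.05 to 1.01, limma adjusted p = 0.305), and culture 4 went the other way with -0.33. Day 21 exceeded day 15 by 0.11 (interval -0.42 to 0.64, adjusted p = 1.00), with 2 cultures higher and 2 lower. Day 21 was higher than day 8 in 4 of 4 cultures, but the difference of 0.59 did not pass (interval 0.06 to 1.12, limma adjusted p = 0.138). Of the difference between day 3 and the highest day mean, 62.6% was present at day 8, with 90.0% in culture 4, 41.6% in culture 8, 56.6% in culture 9 and 62.7% in culture 10, and the share of the means was 50.7% without culture 4.

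Hexokinase, the enzyme that traps glucose in the cell, was higher at every later day than at day 3 in every culture, and its day mean was highest at day 15. At day 3 its probe stood at -3.02, -3.18, -2.64 and -3.41 in cultures 4, 8, 9 and 10, and at day 8 at -1.63, -1.48, -1.05 and -1.50. The lowest day 8 culture, culture 4, lay above the highest day 3 culture, culture 9. At day 15 the values were -1.76, -0.48, -0.84 and -1.22, and at day 21 they were -1.56, -1.04, -1.59 and -2.42. Cultures 8, 9 and 10 peaked at day 15, whereas culture 4 differed little between days 8, 15 and 21. The day means were -3.06 ± 0.33, -1.41 ± 0.25, -1.07 ± 0.55 and -1.65 ± 0.57 at days 3, 8, 15 and 21 (SD, n = 4 each), so the spread between cultures was wider after the change of medium.

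Between days 8 and 3 hexokinase rose 3.13-fold (log2 difference 1.65, SE 0.30, interval 1.01 to 2.29, limma adjusted p = 0.00224). The differences of the single cultures were 1.39, 1.70, 1.59 and 1.91 in cultures 4, 8, 9 and 10, and 2.33% of the tested probes had a larger rise at this step. Without culture 9 it was 1.67 with a limma adjusted p of 0.0266. At day 15 the probe was 3.97-fold higher than at day 3 (log2 difference 1.99, limma adjusted p = 0.000263) and at day 21 it was 2.65-fold higher (1.41, interval 0.77 to 2.05, adjusted p = 0.00238), in 4 of 4 cultures each time, although without culture 8 the day 21 difference was 1.16 with an adjusted p of 0.0291. The later phase exceeded the earlier by 0.87 (SE 0.21, limma adjusted p = 0.00550), with 1.57 in culture 8 and 0.63 to 0.66 in the other 3 cultures, and it was 0.64 without culture 8 (adjusted p = 0.0736) and 0.96 without culture 9 (adjusted p = 0.0279). The earlier phase includes the low day 3. Set against day 8 alone, day 15 differed by 0.34 and day 21 by -0.24, and neither was called. The signals of hexokinase are among the dimmer ones, and normexp background correction, which adds an offset of 50 to the signals, lowered the log2 difference of day 8 against day 3 to 1.10.

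Later neighbouring days of hexokinase were not separated. Day 15 exceeded day 8 by 0.34 (interval -0.30 to 0.98, limma adjusted p = 0.583), with culture 4 slightly lower. Day 21 lay below day 15 by a log2 difference of -0.58 (interval -1.22 to 0.06, limma adjusted p = 1.00), lower in cultures 8, 9 and 10 and 0.19 higher in culture 4. The difference between days 21 and 8 was -0.24 (interval -0.88 to 0.40, limma adjusted p = 0.651), with 2 cultures on either side of 0. At day 8, 82.8% of the difference between day 3 and the day 15 mean was present, 62.8% to 110% in the single cultures.

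Glut2 was lower at day 21 than at day 3 in every culture, and its values varied more between cultures than between days. In culture 4 the probe stood at -0.0033, 0.48, 0.11 and -0.51 on days 3, 8, 15 and 21. In culture 8 it stood at -1.97, -2.44, -2.30 and -4.31, in culture 9 at -1.51, -1.59, -2.81 and -3.89, and in culture 10 at -0.58, -1.74, -2.84 and -3.80. Culture 4 was the highest on all 4 days and day 21 was the lowest day in all 4 cultures. The day means were -1.02 ± 0.89, -1.32 ± 1.26, -1.96 ± 1.40 and -3.13 ± 1.76 on days 3, 8, 15 and 21 (SD, n = 4 each), and the ranges of all days overlapped. Among cultures 8, 9 and 10 alone, day 21 lay below every array of the other days. Culture 4 was set aside there with its values already known, so this is a description only.

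Between days 21 and 3 Glut2 differed by -2.11 on the log2 scale, a 4.32-fold lower mean, with the single cultures at -0.51, -2.34, -2.38 and -3.22. It was lower in 4 of 4 cultures, but the difference did not pass the test when culture was left out of the model (SE 0.87, interval -3.96 to -0.26, limma adjusted p = 0.0734). Arrays of a culture come from 1 pool of fish, and with culture as a replicate block the same difference had an SE of 0.36, an interval of -2.90 to -1.33 and a limma adjusted p of 0.000585. In that paired fit Glut2 fell, and it did so also when any 1 culture was left out (-2.65 to -1.74, limma adjusted p 0.000464 to 0.0105). The paired fit called 19% of the tested probes lower at day 21 than at day 3, so the call itself is common. Without culture 4 the difference was -2.65 and passed without pairing too (limma adjusted p = 0.000513), as 10.6% of tested probes did in that direction. Culture 4 stood apart in these same values, so its removal narrowed the spread, and this pass is a description only. Over all alternatives the limma adjusted p of this difference ran from 0.000464 to 0.265. With all 4 cultures and normexp background correction the difference was -1.13.

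The phases showed the same split. The mean of days 15 and 21 lay below that of days 3 and 8 by -1.38 in Glut2 (SE 0.61, limma adjusted p = 0.0973), with -0.44, -1.10, -1.80 and -2.16 in cultures 4, 8, 9 and 10. With culture as a replicate block the adjusted p was 0.00101, where 17.9% of the tested probes were called lower. Leaving out culture 9 gave -1.23 in the paired fit with a limma adjusted p of 0.0201, just short of a call. Day 21 against day 8 gave -1.81 (limma adjusted p = 0.191 unpaired and 0.00452 paired, where 7.21% of the tested probes were called lower), with 4 of 4 cultures lower.

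No single step carried the Glut2 difference in the test. Day 8 against day 3 gave -0.30 (interval -2.16 to 1.55, limma adjusted p = 0.853), with culture 4 higher and the other 3 lower. Day 15 against day 8 gave -0.64 (interval -2.49 to 1.21, adjusted p = 0.753), with culture 8 higher by 0.14. Day 21 against day 15 gave -1.17 (interval -3.02 to 0.68, limma adjusted p = 1.00), lower in 4 of 4 cultures with -0.62, -2.01, -1.08 and -0.97. Of the tested probes, 0.400% had a larger fall at this last step, but limma called 0 probes of the array there. With normexp background correction this Glut2 difference was -0.47, and its place among all probes was not counted under that correction. Over the array, 624 probes higher and 852 lower had an unadjusted p below 0.05 in limma at this step (729 and 246 with normexp, 730 and 634 with the deposited table). Paired by culture the last step had an interval of -1.95 to -0.38, an unadjusted p of 0.00688 and an adjusted p of 0.623.

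**Figure D2:**
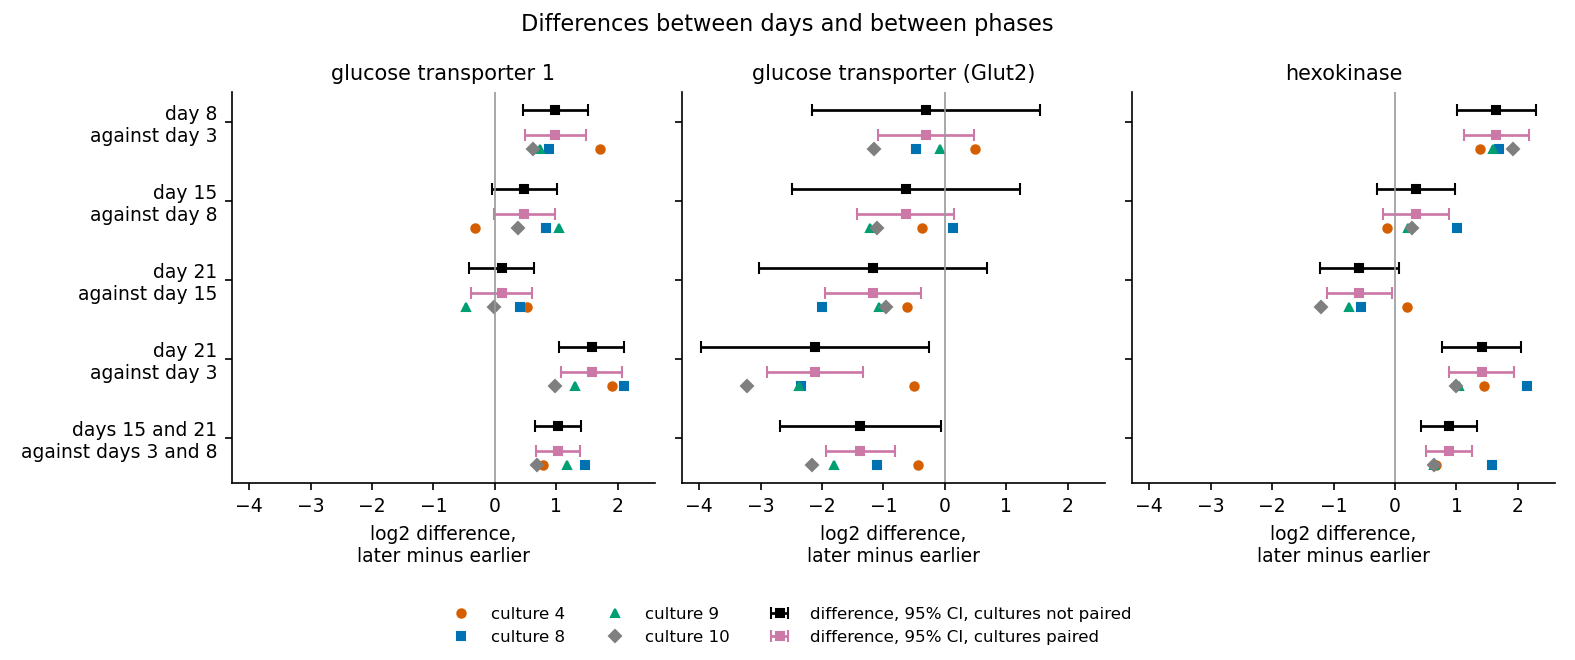
Log2 differences, later minus earlier (horizontal axes), for 5 comparisons of days or phases and the 3 probes. Squares with bars are the limma differences and 95% confidence intervals, black without culture in the model and pink with culture as a block, and the coloured symbols below them are the 4 cultures. For Glut2 the pairing by culture narrowed the interval of day 21 against day 3 to -2.90 to -1.33, and the 2 intervals are nearly alike for the other 2 probes.

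The distance of culture 4 from the others in Glut2 grew over the days. Its probe lay 0.58 above the next highest culture at day 3 (1.49-fold), 2.07 above it at day 8 (4.21-fold), 2.41 at day 15 (5.32-fold) and 3.29 at day 21 (9.80-fold). In processed signal, day 21 read 364 in culture 4 and 37.4, 54.6 and 38.9 in cultures 8, 9 and 10. The lowest signals counted as well above background at day 21 were 21.4, 13.9 and 19.8 in cultures 8, 9 and 10. Fold distances from signals this dim are sensitive to the background correction. Among all tested probes, 5.77% had culture 4 highest on all 4 days, and 0.136% did so with a distance at day 21 at least as large as that of Glut2. These counts were picked with the Glut2 values already known, and a culture is 1 sample, so they describe culture 4 without a test.

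Split into parts, 32.0% of the sum of squares of Glut2 lay between days and 58.9% between cultures. For glucose transporter 1 the shares were 80.0% and 6.21%, and for hexokinase 79.3% and 10.0%. The medians over all tested probes were 40.8% and 22.2%, so glucose transporter 1 and hexokinase stood above that median in their share between days and Glut2 in its share between cultures. A larger share between cultures than that of Glut2 was seen in 8.15% of the tested probes. Without culture 4, 87.1% of the Glut2 variation lay between days and 3.92% between cultures.

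**Figure D3:**
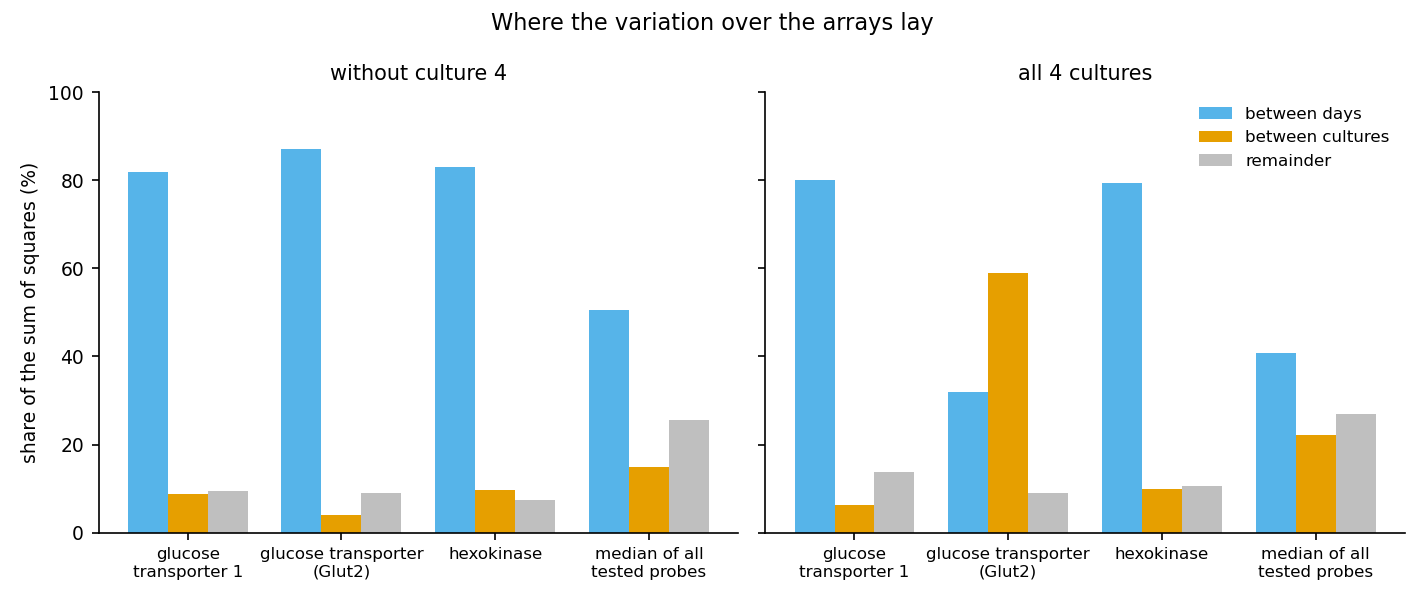
Share of the sum of squares over the arrays (vertical axis, %) between days, between cultures and in the remainder, for the 3 probes and as the median of all tested probes, without culture 4 on the left and with all 4 cultures on the right. The bar of Glut2 between cultures is 58.9% with all 4 cultures and 3.92% without culture 4.

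Counted over the members, 2 of 3 were called higher at day 8 than at day 3, where 5.15% of all tested probes were called higher and 4.88% lower. At day 15 against day 8 and at day 21 against day 15, 0 of 3 were called, beside 1.17% and 0% of all tested probes called higher and 0.74% and 0% called lower. At day 21 against day 3, 2 of 3 were called higher (background 11.9% higher and 13.6% lower), and so were 2 of 3 between the phases (12.5% higher and 13% lower). The count was also 2 of 3 for day 15 against day 3 (10.4% higher and 11% lower), whereas 0 of 3 were called for day 21 against day 8 (3.63% higher and 2.96% lower). These counts are without pairing. With culture as a block Glut2 was called lower as well, so that 3 of 3 were called at day 21 against day 3, between the phases and over the 4 days (36.7% of the tested probes over the 4 days), and 1 of 3 at day 21 against day 8. Of the 42541 tested probes, the paired fit called 6937 higher and 8087 lower at day 21 against day 3. Between the phases it called 7228 higher and 7631 lower, and at day 21 against day 8 it called 3086 and 3069. The split of the background depended on the scaling: with the deposited table, which shifted the differences of all probes between days 21 and 3 by 0.12 on the log2 scale, 58.4% of the calls at day 21 against day 3 were higher, in place of 46.6%. These shares were 62.2% in place of 49.0% between the phases, 73.2% in place of 61.3% at day 15 against day 8, 59.7% in place of 48.7% at day 15 against day 3 and 70.2% in place of 55.1% at day 21 against day 8. With normexp they were 59.6% between the phases and 69.5% at day 21 against day 8. Over the 4 days, limma's F-test called glucose transporter 1 (adjusted p = 0.000786) and hexokinase (adjusted p = 0.000734) beside 24.3% of the tested probes, and gave an adjusted p of 0.214 for Glut2. Without culture 8 glucose transporter 1 had a limma adjusted p of 0.0230 over the days, and without culture 4 Glut2 had 0.00188. The Glut2 value is a description only, as culture 4 stood apart in the same values. With the further requirement of a ratio above 3 between the highest and lowest day mean, which 8.84% of the tested probes met, hexokinase passed at 3.97 and glucose transporter 1 just missed it at 2.98. Both outcomes depended on the processing, as a ratio of 3 is 1.58 on the log2 scale. Under the alternatives with all 4 cultures the log2 range ran from 1.46 to 1.70 for glucose transporter 1. For hexokinase it ran from 1.37 to 2.08. At day 8 against day 3 hexokinase was also past the ratio of 3, as were 1.87% of the tested probes called higher, but with normexp its log2 difference was 1.10.

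The 16 arrays came from 2 slides. Slide 1 held 3 day 3 cultures but only 1 day 8 culture, and slide 2 the reverse. For hexokinase, day 8 exceeded day 3 by 1.45 within slide 1 and by 1.67 within slide 2, and for glucose transporter 1 by 1.38 and 1.07. With slide as a block the glucose transporter 1 difference at this step was 1.06 with a limma adjusted p of 0.0208. For Glut2 the same step gave 1.84 within slide 1 and -1.92 within slide 2, where the lone array was culture 4 each time. At day 21 against day 3 the values within slides 1 and 2 were 1.5 and 1.82 for glucose transporter 1, 1.5 and 1.29 for hexokinase, and -0.85 and -4.05 for Glut2. On slide 2 the lone day 3 array was culture 4, and the day 21 arrays were cultures 8 and 10. Slide 1 held cultures 8, 9 and 10 at day 3 and cultures 4 and 9 at day 21. Between the phases the values within slides 1 and 2 were 0.70 and 1.27 for glucose transporter 1, 1.14 and 0.67 for hexokinase, and -1.95 and -1.74 for Glut2. The values within slides against day 3 thus set different groups of cultures against each other. Between the phases, each slide held all 4 cultures in both phases. There each day mean counted equally, so the lone culture 4 array of the earlier phase weighed as much as the 3 other arrays together. All values within slides therefore also hold differences between cultures.

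Over the 16 arrays glucose transporter 1 and hexokinase varied together (Pearson r = 0.84), and r was 0.63 after the day means were removed. Glut2 had r = -0.41 with glucose transporter 1 and -0.35 with hexokinase, and 0.0079 and -0.31 without the day means. These are descriptions over 16 arrays that share 4 cultures. Of all tested probes, the one most like glucose transporter 1 was the contig TC105422 (r = 0.99), whose day means were 2.16, 3.06, 3.56 and 3.69. The one most like Glut2 was the contig TC118337 (r = 0.98), with day means of 2.45, 1.91, 1.01 and -0.13, and 101 tested probes had an r above 0.9 with Glut2, against 226 for glucose transporter 1 and 64 for hexokinase. The probe most like hexokinase (r = 0.97) carries only the identifier of a sequence record and had day means of -3.89, -1.88, -1.42 and -1.77. The files pair none of these 3 with a gene name. Among the 47 other tested probes with a readable or RefSeq name, those most like glucose transporter 1 were calpastatin, the calpain inhibitor (r = 0.91), and L-3-hydroxyacyl-CoA (r = 0.85), a name that breaks off. Those most like hexokinase were LOC100136786 (r = 0.86) and glucose transporter 1 itself, and those most like Glut2 were atg4b, a protease of autophagy (r = 0.68), and a probe named only trout (r = 0.67).

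Of the wider list of glucose transport, glycolysis, gluconeogenesis, glycogen and insulin signalling genes, only 4 probes besides the members carried a matching name, and 2 of them were tested. Of these 2, 1 was called higher and 0 lower both at day 21 against day 3 and between the phases, and 0 were called in the 3 steps between neighbouring days. The one called was phosphoenolpyruvate, a name that breaks off and is read here as phosphoenolpyruvate carboxykinase, the enzyme of gluconeogenesis and of glycerol synthesis in fat. At day 21 it stood at 0.52, 0.31, 0.18 and 0.65 in cultures 4, 8, 9 and 10, against -0.58, -1.24, -1.18 and -0.50 at day 3. All 4 cultures were higher at day 21 without overlap, with a log2 difference of 1.29 (limma adjusted p = 0.00113). Without culture 8 it was 1.2 with a limma adjusted p of 0.0212. Its day means were -0.87, -0.02, 0.40 and 0.41 on days 3, 8, 15 and 21, and day 8 against day 3 gave 0.85 with a limma adjusted p of 0.0288, short of the threshold. ATP-citrate, read as ATP-citrate lyase, which supplies cytosolic acetyl-CoA for fatty acid synthesis, gave -0.41 at day 21 against day 3 (limma adjusted p = 0.420), and 0.053 after normexp background correction.

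The 2 liver-type enzymes on the list were at or near background. Glucokinase, the low-affinity hexokinase of liver, was well above background on 1 of 16 arrays, culture 10 at day 8 with a processed signal of 102, and read 3.29 to 6.37 on the others. Glucose-6-phosphatase, which undoes the hexokinase reaction and releases free glucose, was well above background on 3 of 16 arrays, at day 3 in cultures 8 (signal 34.4) and 10 (124) and at day 8 in culture 4 (28.4). On the 8 arrays of days 15 and 21 it was not well above background. Neither probe was tested, and no fold change is given.

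Few probes allowed a check of the cell type. Of 12 adipocyte markers, only PPARg, the nuclear receptor of adipocyte differentiation, was matched by name. Its signal passed the background mark in 0 of 16 samples. This probe alone does not decide the cell type. The truncated name phosphoenolpyruvate, read above as phosphoenolpyruvate carboxykinase, was not counted as a match to these markers. It was called higher at day 21 than at day 3 (1.29, limma adjusted p = 0.00113). Between the phases it was also called higher (0.86, limma adjusted p = 0.00171). From qPCR and Western blots, the study reports higher phosphoenolpyruvate carboxykinase at later days. The study reports from Western blots that PPARg protein increased during culture and stayed raised to the end. It also reports higher expression of genes of lipid droplets and fatty acid transport during differentiation. Of 4 muscle markers, only myogenine (myogenin, a regulator of muscle differentiation) had a matching name. It passed the background mark on each of the 16 arrays, with day means of -3.10, -2.96, -2.78 and -2.71 and a limma adjusted p of 0.280 over the days. With quantile normalization limma called it higher at day 21 than at day 3 (0.53, adjusted p = 0.0198) and between the phases (0.38, adjusted p = 0.0177). In the main fit these adjusted p were 0.105 and 0.0994. For dividing cells, macrophages, erythrocytes, endothelium, liver and fibroblasts, 0 probes carried a matching name. The part of other cell types in the values of the 3 probes was not tested.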

How the data were processed

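Cy3-labelled total RNA from 4 cultures at 4 days was hybridised to 16 one-colour Agilent arrays on 2 slides. The authors read spot intensities with Feature Extraction 10.7.3.1 (version from the submitters' processing notes) and deposited these background-subtracted intensities, unscaled between arrays, beside columns of flags. A second deposited table from GeneSpring holds log2 values. Each of its columns is the log2 processed signal of that array plus 1 constant.

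Control spots and outlier spots (6 to 272 per array) were left out, replicate spots were averaged, and the processed signal was expressed on the log2 scale against the 75th percentile of its array (518 to 881 signal units). A value was missing on some array for 1050 of the 60195 probes. A probe was tested if at least 1 day had it well above background in all 4 cultures. limma 3.58.1 (R 4.3.3) was fitted to all 42541 tested probes with 1 mean per day, and p-values were adjusted by Benjamini-Hochberg over these. A call is an adjusted p below 0.02. The study's methods name the same p, with no adjustment given, together with a fold change above 3, which is applied here only where stated. Fits were tested on simulated data. Summaries and figures used Python 3.11.15, numpy 2.4.6, pandas 2.3.3 and matplotlib 3.10.9.

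The members, the gene lists and the tests were chosen with earlier results of these data known. Named probes were the 3 members, the probes of the pathway and marker lists that a name matches, and those most like a member. Names came from the files and, for 4 of 7 RefSeq accessions, from RefSeq's table for the assembly USDA_OmykA_1.1, giving 64 named probes, 48 of them tested. Neither probe sequences nor genome positions were used here. Which gene copy a probe detects is not given in the sources used here. Truncated names were read by their first word. The comparisons of day 15 with day 3 and of day 21 with day 8, the share present at day 8, the counts of highest cultures, the correlations without day means, the paired fits that leave out a culture and all alternatives for phosphoenolpyruvate, ATP-citrate and myogenine were added after seeing the data.

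Each culture is a single pool of fish, so culture numbers pair the samples. The deviations from the day means of arrays that share a culture had mean correlations across probes of 0.18 between days 3 and 8 (culture 10 gave -0.14) and 0.60 between days 15 and 21. Slide, tested as a batch, had an adjusted p of 1.00 for each of the 3 probes. Alternatives changed the model (culture as a replicate block, slide as a block, the one-way test of the methods), the signal (normexp on median signals, the deposited table), the scaling (quantile, or the percentile over probes bright on every array) and the filter (none, or bright on every array), and left out each culture in turn.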

Additional observations from a re-analysis of the deposited data

Results flagged for a closer look

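In each group of 4 cultures, the distance of the highest or lowest culture from its neighbour was set against the range of the group. Of 34 such groups, 2 were past Dixon's critical value for 4 samples, and chance flags about 1 in 20. Culture 4 had Glut2 at -0.51 on day 21, while cultures 8, 9 and 10 lay between -4.31 and -3.80 (a share of 0.868 of the range). The hexokinase difference of days 15 and 21 against days 3 and 8 was 1.57 in culture 8, while cultures 4, 9 and 10 lay between 0.63 and 0.66 (a share of 0.964).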

How the results depend on the processing

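Of 387 values of the 3 probes under the alternatives, 350 kept direction and side of the threshold, 15 lost the call, 20 gained it and 2 reversed. For glucose transporter 1, day 8 against day 3 lost its call without the filter on dim probes (0.99, adjusted p = 0.0255 in limma) and with slide as a block (1.06), and ranged from 0.74 to 1.11 without 1 culture, with the call lost without any of the 4 in the unpaired fits and without cultures 4, 8 or 9 in the paired ones. Its day 21 against day 15, not called, ranged from -0.026 (without culture 4, paired or not) to 0.30, and its range over the 4 days from 1.40 (without culture 8, not called) to 1.77. Paired, the range of glucose transporter 1 over the 4 days kept its call without each culture. For hexokinase the ranges were 1.56 to 1.73 for day 8 against day 3 (call lost without culture 9, unpaired only), 1.16 to 1.55 for day 21 against day 3 (lost without culture 8, unpaired only) and 0.64 to 0.96 between the phases (lost without culture 8 or 9, and without culture 8 in the paired fit).

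Glut2 gained calls with the replicate block at day 21 against day 3 (-2.11), between the phases (-1.38), at day 21 against day 8 (-1.81) and over the 4 days (2.11). With all 4 cultures, pairing changed no other call of the 3 probes. Without 1 culture these ranged from -2.65 to -1.74, -1.69 to -1.11, -2.08 to -1.64 and 1.74 to 2.65, and day 15 against day 3, called only in the paired fit without culture 4, from -1.30 to -0.50. With normexp, day 21 against day 3 of Glut2 was -1.13. Shares of variation moved for hexokinase with normexp (81.6% between days and 5.03% between cultures). Without 1 culture, shares between days and between cultures ranged from 77.8% to 87.1% and 0.84% to 8.70% for glucose transporter 1, 23.0% to 87.1% and 3.92% to 70.7% for Glut2, and 79.5% to 83.0% and 6.89% to 11.3% for hexokinase.

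Counts of all probes called moved by over 1.5 times as follows. With the replicate block they were 7813 in place of 4268 at day 8 against day 3, 2504 in place of 814 at day 15 against day 8, 6155 in place of 2803 at day 21 against day 8 and 15614 in place of 10328 over the 4 days. Without the filter on dim probes, 427 were called at day 15 against day 8, and normexp gave 1979 in place of 3759 over the 4 days with a ratio above 3. Without 1 culture the counts were 921 to 3398 for day 8 against day 3, 12 to 926 for day 15 against day 8, 5021 to 10541 (10829 with all cultures) for day 21 against day 3, 4792 to 10610 (10838) between the phases, 3512 to 8932 (9132) for day 15 against day 3, 298 to 2464 for day 21 against day 8, 3283 to 9283 over the 4 days and 2098 to 4145 with the ratio, lowest without culture 8 or 9. For phosphoenolpyruvate, the calls at day 21 against day 3 (unpaired and paired) and between the phases (paired) were lost without culture 8, and ATP-citrate, not called, reversed with normexp (0.053). The causes were not tested.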
